A study of Mus musculus with 16 samples.

Results

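The 51 genes described here encode proteins that fold, translocate, glycosylate and survey polypeptides in the endoplasmic reticulum (ER). They were taken by gene symbol from a list of ER folding, translocation, glycosylation and stress genes, and each was found once among the 51912 genes of the normalized count table. All 51 had a mean of at least 10 normalized counts over the 16 libraries and were therefore among the 12505 genes tested. For the account below they were set out in 9 groups by role, namely 11 folding chaperones, 4 disulfide isomerases, 6 genes of ER-associated degradation, 5 of the signal recognition particle, 5 of the translocon, 4 of the translocon-associated protein complex, 5 of the signal peptidase, 7 of the oligosaccharyltransferase and 4 stress regulators.

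The libraries came from germinal center (GC) B cells of the spleen of cMyc-gfp/gfp mice, male and female and 6 to 15 weeks old, sorted 7 d after intraperitoneal immunization with sheep red blood cells (SRBC). These mice express a fusion of GFP with cMyc from the endogenous gene, so that GFP fluorescence marks the GC B cells in which cMyc protein is present. All libraries were made from total RNA of B220+ CD38low CD95+ cMyc-GFP+ cells enriched by negative selection on CD43, and 4 subpopulations were compared, with 4 libraries each. The cMyc+prePB subpopulation (candidate precursors of plasmablasts) was CD69hi, cMyc+early was CD23hi CD21/35hi, cMyc+lateCD23int was CD23int CD21/35int and cMyc+lateCD23lo was CD23lo CD21/35lo. In the paper's gating, CD69hi cells and then CXCR4hi CD86lo cells (the GC dark zone) were removed before the CD23 gates. The cMyc+prePB cells were not gated on CXCR4 and CD86. The labels number the libraries 1 to 4 in each subpopulation but do not say which came from which animals, so that p-values measure the spread between these libraries. The gates were set on cMyc-GFP and surface proteins, and no transcript of the 51 genes was used to sort the cells. Reads recovered from the normalized counts ranged from 19812080 to 25795815 per library. A gene at 3 reads would stand at 2.48 to 3.23 normalized counts, which covers counting error only.

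Proteins that a B cell secretes or places on its surface enter the ER through the translocon, are cut by signal peptidase, receive N-linked glycans and are folded with the help of chaperones and disulfide isomerases. Polypeptides that do not fold are sent back to the cytosol for degradation. Sensors in the ER membrane, among them the products of Ern1 and Atf6, raise the transcription of many of these genes when unfolded protein accumulates. In the B lineage the machinery is known for its expansion in plasmablasts and plasma cells, in which Xbp1 drives it as antibody secretion rises, whereas GC B cells secrete little antibody.

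Several of these genes share a regulatory sequence, which is shown here because it was found mostly in the chaperone group. The ER stress response element (ERSE) is a pair of short sequences at a fixed distance, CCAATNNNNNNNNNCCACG, bound by NF-Y and by ATF6 or XBP1. A shorter form, ERSE-II, reads ATTGGNCCACG. Promoter windows of 300 bases, from 250 before to 50 after the start of each gene, were taken from RefSeq (GRCm38.p6) and matched 41 of the 51 members. Both strands were searched for exact letters, and CCACG is part of both elements. ERSE was found in 8 of the 41 windows (19.5%), against 15 of the 10905 windows of tested genes (0.138%) and 39 of all 32851 windows (0.119%). ERSE-II was found in 2 windows (4.88%), against 0.0734% and 0.0365%. The member windows are themselves counted among those of tested genes and among all windows. Of the 9 chaperone windows, 6 held ERSE and 1 held ERSE-II. The others with ERSE belonged to the isomerase Pdia6 and to Syvn1, an ubiquitin ligase of ER-associated degradation, and Herpud1 of the same pathway held ERSE-II. The element CCAAT alone was present in 75.6% of the member windows and 39% of those of tested genes, and CCACG alone in 78% and 47.2%. The letters TGACGTG, the core of the unfolded protein response element, were in the Hspa5 window alone (2.44% of member windows, 2.87% of those of tested genes). A match describes these letters and is not shown to be a bound site.

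The 11 matched stretches are given 5′ to 3′ on the strand of the motif, with the fixed bases in capitals:
Calr, ERSE, chr8:84847075-84847093 (plus strand): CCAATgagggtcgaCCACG
Canx, ERSE, chr11:50325800-50325818 (minus strand): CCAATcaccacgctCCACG
Creld2, ERSE, chr15:88819520-88819538 (minus strand): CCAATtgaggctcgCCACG
Dnajb11, ERSE-II, chr16:22857852-22857862 (plus strand): ATTGGcCCACG
Dnajc3, ERSE, chr14:118937827-118937845 (plus strand): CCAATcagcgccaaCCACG
Herpud1, ERSE-II, chr8:94386377-94386387 (plus strand): ATTGGgCCACG
Hsp90b1, ERSE, chr10:86705638-86705656 (minus strand): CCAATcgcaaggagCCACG
Hsp90b1, ERSE, chr10:86705533-86705551 (plus strand): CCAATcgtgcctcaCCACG
Hspa5, ERSE, chr2:34772025-34772043 (plus strand): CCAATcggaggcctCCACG
Pdia6, ERSE, chr12:17266491-17266509 (plus strand): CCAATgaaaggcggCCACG
Syvn1, ERSE, chr19:6046532-6046550 (plus strand): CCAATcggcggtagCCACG

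The spacer differs in every ERSE, and Hsp90b1 carries 2 copies, in opposite orientations. In Hspa5, Dnajc3 and Syvn1 the ERSE lies on the strand of the gene, with 46, 86 and 25 bases between it and the RefSeq start. In Creld2 it lies on the other strand, with 107 bases between it and the RefSeq start. The GENCODE model of Hspa5 starts farther upstream, at 34771970, so that its ERSE lies inside that model. The windows of the 3 chaperones that came first in the comparison of the subpopulations follow whole, in the direction of the gene and with the fixed bases of the ERSE in capitals. For Creld2 the capitals read as the reverse complement:
Hspa5, chr2:34771840-34772139 (plus strand): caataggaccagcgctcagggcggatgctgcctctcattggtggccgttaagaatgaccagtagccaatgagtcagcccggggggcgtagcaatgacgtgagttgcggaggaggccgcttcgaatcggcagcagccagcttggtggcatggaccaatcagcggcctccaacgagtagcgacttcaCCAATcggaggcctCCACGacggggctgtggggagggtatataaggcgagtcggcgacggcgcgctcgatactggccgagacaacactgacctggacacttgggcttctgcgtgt
Creld2, chr15:88819396-88819695 (plus strand): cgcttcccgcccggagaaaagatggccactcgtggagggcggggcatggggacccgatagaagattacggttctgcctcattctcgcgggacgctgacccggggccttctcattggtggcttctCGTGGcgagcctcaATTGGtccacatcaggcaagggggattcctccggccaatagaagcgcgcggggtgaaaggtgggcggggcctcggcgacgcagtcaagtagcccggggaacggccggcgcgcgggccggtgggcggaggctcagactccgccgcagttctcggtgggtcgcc
Dnajc3, chr14:118937682-118937981 (plus strand): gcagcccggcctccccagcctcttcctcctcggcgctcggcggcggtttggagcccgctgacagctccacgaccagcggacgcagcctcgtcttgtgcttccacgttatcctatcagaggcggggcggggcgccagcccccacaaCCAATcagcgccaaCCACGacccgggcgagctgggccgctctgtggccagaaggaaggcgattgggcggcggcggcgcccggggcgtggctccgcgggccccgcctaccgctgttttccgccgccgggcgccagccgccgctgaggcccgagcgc

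The levels of the members ranged widely (plot of levels per kilobase of exon). Dividing the mean normalized count by the exon length of the GENCODE M21 gene model, Hspa5 (BiP, the main ER chaperone) stood at 12820 per kilobase, Canx (calnexin, a lectin chaperone) at 11315, Pdia3 (an isomerase that works with calnexin and calreticulin) at 10643 and Herpud1 at 6472. The lowest were Ern1, which encodes the stress sensor IRE1, at 2.42 per kilobase and Hyou1, a nucleotide exchange factor of BiP, at 12.6. The members together took 1.35% to 1.90% of the reads of a library, and Hspa5 alone 0.164% to 0.345%. The 5 subunits of the signal peptidase lay between 818 and 3607 per kilobase and the 7 of the oligosaccharyltransferase between 780 and 1936. The exon length joins all annotated exons of a gene and can exceed the length of its transcripts, so that these ranks depend on it. It was 6808 bases for Sec11c, 10431 for Ssr1 and 4229 for Hspa5, against median transcript lengths of 821, 1718 and 3142.

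**Figure D1:**
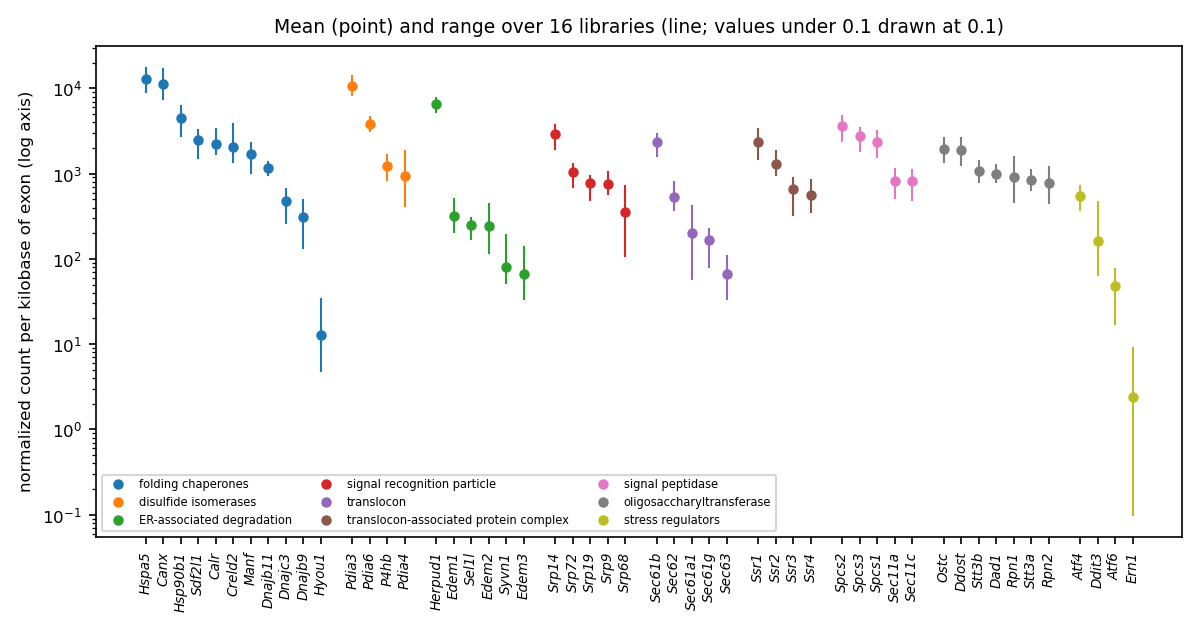
Normalized counts per kilobase of exon of the 51 ER genes on a log axis, ordered by role, with the mean over 16 libraries as a point and the range as a line. All annotated exons of a gene are joined for its length. Hspa5 (12820), Canx (11315) and Pdia3 (10643) are the highest and Ern1 is at 2.42, with libraries at 0 drawn at 0.1.

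None of the 51 genes differed between the 4 subpopulations at an adjusted p under 0.05 in the moderated F test of limma, in which 51 of the 12505 genes tested (0.408%) were called. At an unadjusted p under 0.05 there were 6 members (11.8%), against 10.2% of all genes tested. These were Creld2, Pdia4, Edem3, Hspa5, Dnajc3 and Sec61g, 3 of them chaperones. The quasi-likelihood test of edgeR on the recovered reads also called 0 members (0.232% of all genes), with 5 of the 51 at an unadjusted p under 0.05 (8.89% of all genes). DESeq2 on the same reads called Creld2, Pdia4 and Edem3 in a likelihood ratio test, which called 2.12% of 12451 genes. In it 8 of the 51 members had an unadjusted p under 0.05, against 11.5% of all genes. On the log2 scale the SD within a subpopulation had a median of 0.299 over the members and 0.615 over all genes tested. Among the 3651 genes whose mean was 1000 or more, which include 40 members, the medians were 0.276 for members and 0.300 for all. A shift of all cells and a change in the share of a few cells with much ER cannot be told apart in these bulk libraries.

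**Figure D2:**
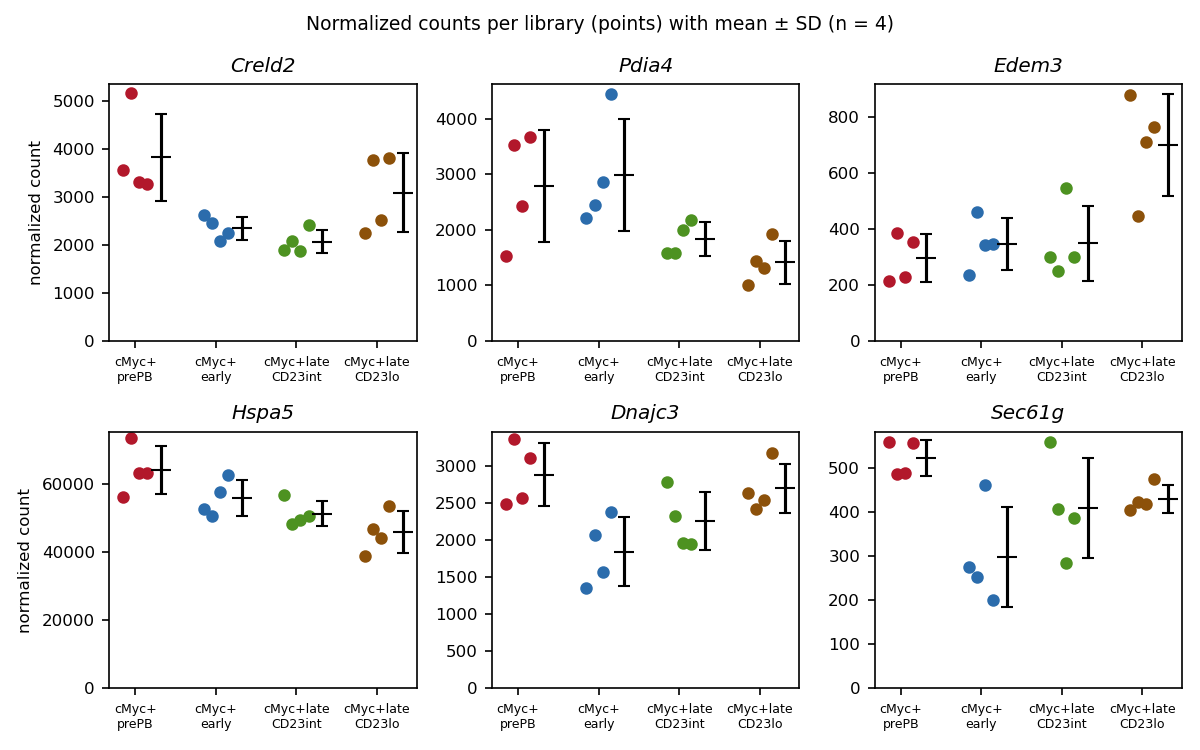
Normalized counts of the 6 ER genes with the smallest F test p, per library (points, replicate 1 to 4 from left to right) with the mean and SD of 4 libraries (black). The cMyc+prePB points of Creld2, Dnajc3 and Sec61g lie above those of cMyc+early, and the cMyc+early points of Pdia4 above those of cMyc+lateCD23lo.

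Creld2, on chromosome 15 at 88819646 to 88826683 (GRCm38, plus strand), encodes an ER protein with disulfide isomerase activity and was the member with the smallest F test p. In replicates 1 to 4, Creld2 had 3568, 5179, 3315 and 3265 normalized counts in cMyc+prePB, against 2624, 2459, 2083 and 2246 in cMyc+early, 1901, 2095, 1882 and 2414 in cMyc+lateCD23int and 2259, 3774, 2521 and 3818 in cMyc+lateCD23lo. The cMyc+prePB values were all above those of cMyc+early and cMyc+lateCD23int, and overlapped with cMyc+lateCD23lo, in which replicates 2 and 4 were high. The log2 fold change of cMyc+prePB against the mean of the 3 other subpopulations was 0.62 (SE 0.16, 95% confidence interval 0.29 to 0.96, limma adjusted p = 0.117), and the F test gave an adjusted p of 0.153. DESeq2 gave an adjusted p of 0.0175 for this fold change, and the range of adjusted p over all alternatives was 0.0175 to 0.373.

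Hspa5, on chromosome 2 at 34771970 to 34777547 (plus strand), followed among the chaperones. Normalized counts of Hspa5 in replicates 1 to 4 were 56216, 73492, 63249 and 63068 in cMyc+prePB, against 52698, 50636, 57445 and 62596 in cMyc+early, 56691, 48189, 49472 and 50612 in cMyc+lateCD23int and 38736, 46816, 43963 and 53555 in cMyc+lateCD23lo. All cMyc+prePB libraries were above all cMyc+lateCD23lo libraries, and neighbors in the order of means overlapped. The means were, in that order, 64006 ± 7121 for cMyc+prePB, 55844 ± 5328 for cMyc+early, 51241 ± 3766 for cMyc+lateCD23int and 45767 ± 6176 for cMyc+lateCD23lo (SD, n = 4). The log2 fold change of cMyc+prePB against the others was 0.33 (SE 0.10, limma adjusted p = 0.217).

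Dnajc3 encodes a co-chaperone of BiP that also inhibits the kinase of the translational arm of the stress response. Dnajc3 stood at 2488, 3368, 2570 and 3114 normalized counts in replicates 1 to 4 of cMyc+prePB, at 1354, 2068, 1576 and 2389 in cMyc+early, at 2796, 2324, 1971 and 1955 in cMyc+lateCD23int and at 2641, 2431, 2551 and 3183 in cMyc+lateCD23lo. The cMyc+early libraries lay below all cMyc+prePB and all cMyc+lateCD23lo libraries, with log2 differences of -0.58 against cMyc+lateCD23lo (SE 0.19, limma adjusted p = 0.301) and 0.67 for cMyc+prePB against cMyc+early (SE 0.19, adjusted p = 0.243).

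Over the chaperone group the fold changes of cMyc+prePB against the other subpopulations were on one side. They were above 0 in 10 of 11 genes, with a median of 0.26, while 50.3% of all genes tested and 34 of the 51 members (66.7%) were above 0. The exception was Canx, at -0.08. Hsp90b1, the ER form of HSP90, is the other abundant soluble chaperone. In replicates 1 to 4, Hsp90b1 had 22140, 25143, 16222 and 17463 normalized counts in cMyc+prePB, against 20679, 15790, 20477 and 19260 in cMyc+early, 15636, 17671, 12736 and 15593 in cMyc+lateCD23int and 11182, 21886, 15215 and 20865 in cMyc+lateCD23lo. The ranges of all 4 subpopulations overlapped (log2 fold change 0.24, limma adjusted p = 0.608). Dnajb9, a co-chaperone known as a target of Xbp1, varied more between libraries. Normalized counts of Dnajb9 in replicates 1 to 4 were 923, 792, 1191 and 516 in cMyc+prePB, against 1034, 469.9, 749 and 343 in cMyc+early, 1249, 833, 783 and 502 in cMyc+lateCD23int and 1152, 517, 696 and 979 in cMyc+lateCD23lo. Replicate 4 was the lowest library in each subpopulation except cMyc+lateCD23lo, and the ranges of all 4 overlapped. The mean log2 score of the 11 chaperones, which is the mean deviation of the genes from their 16-library means, was 0.218 ± 0.161 in cMyc+prePB, with all 4 libraries between 0.0958 and 0.447. It was -0.0518 ± 0.102 in cMyc+early, -0.132 ± 0.106 in cMyc+lateCD23int and -0.0346 ± 0.153 in cMyc+lateCD23lo (SD, n = 4), where replicate 4, at 0.193, overlapped with cMyc+prePB.

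**Figure D3:**
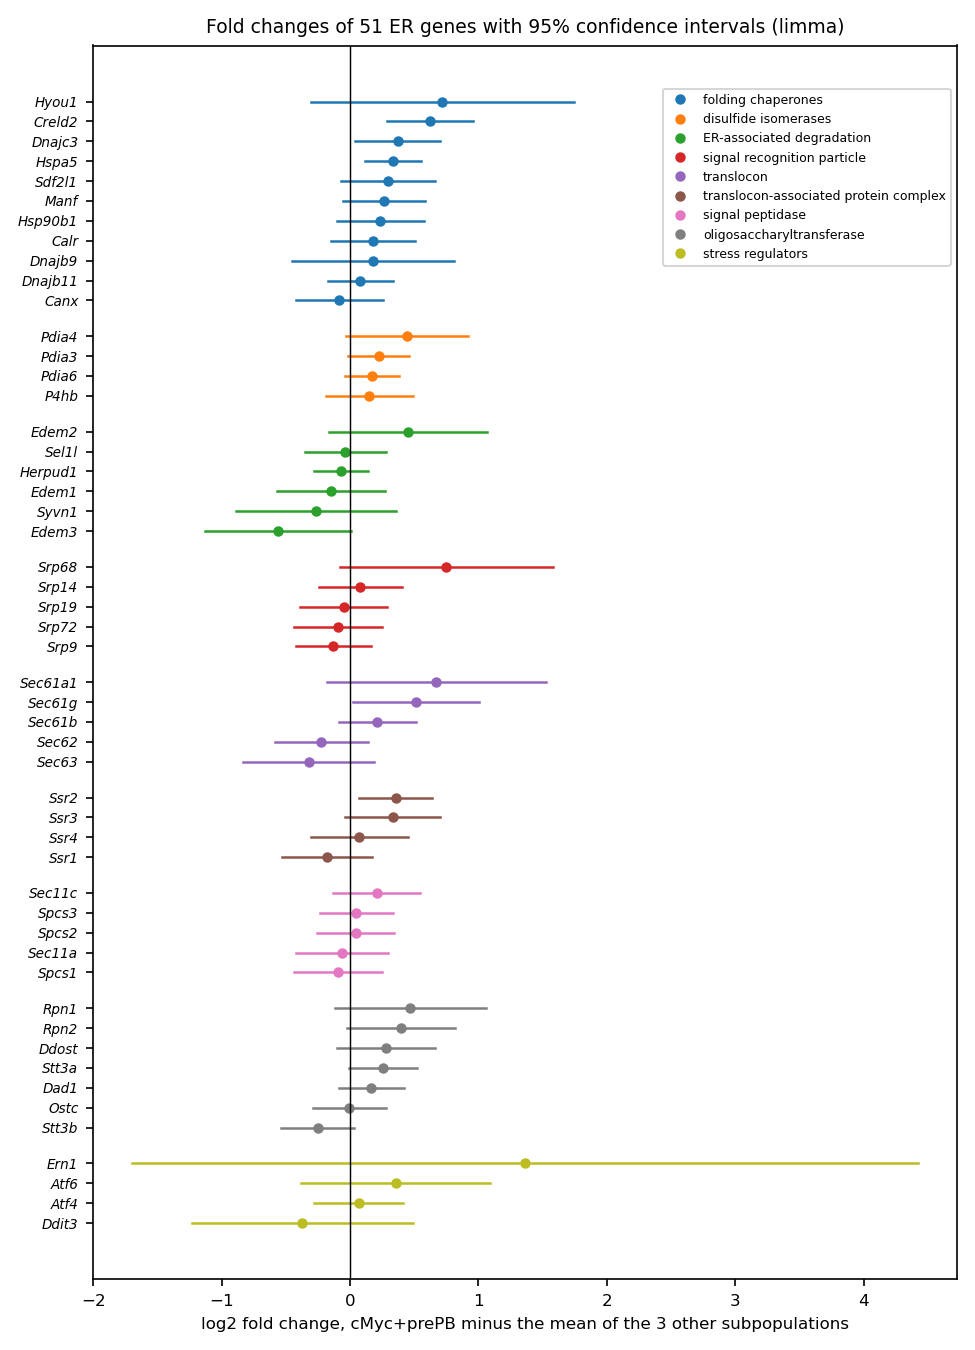
Log2 fold change of cMyc+prePB minus the mean of the 3 other subpopulations for 51 ER genes, by role, with 95% confidence intervals from limma. The chaperones lie to the right of 0 except Canx, the genes of ER-associated degradation lie around or to the left of 0 except Edem2, and the widest interval is that of Ern1.

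Pdia4, an isomerase of the BiP complex on chromosome 6 at 47796141 to 47813430 (minus strand), had the smallest F test p of the isomerases. Pdia4 stood at 1524, 3533, 2426 and 3665 normalized counts in replicates 1 to 4 of cMyc+prePB, at 2218, 2443, 2857 and 4445 in cMyc+early, at 1582, 1590, 1994 and 2179 in cMyc+lateCD23int and at 1002, 1439, 1310 and 1931 in cMyc+lateCD23lo. All cMyc+early libraries were above all cMyc+lateCD23lo libraries, and cMyc+prePB reached from the level of cMyc+lateCD23lo in replicate 1 to that of cMyc+early in the others. The log2 fold change of cMyc+early against cMyc+lateCD23lo was 1.06 (SE 0.28, 95% confidence interval 0.47 to 1.64, limma adjusted p = 0.153). DESeq2 gave 0.0185, and over all alternatives the adjusted p ranged from 0.0128 to 0.392. Pdia4 and Dnajc3 were the only members whose cMyc+early and cMyc+lateCD23lo libraries did not overlap (2 of 51, against 6.23% of all genes tested). The most abundant isomerase was Pdia3. In replicates 1 to 4, Pdia3 had 35533, 43807, 35819 and 34347 normalized counts in cMyc+prePB, against 30689, 32430, 33737 and 36621 in cMyc+early, 28277, 32231, 27489 and 32417 in cMyc+lateCD23int and 25901, 37608, 29435 and 38183 in cMyc+lateCD23lo. Only cMyc+prePB replicate 2 exceeded the highest library of cMyc+lateCD23lo. Pdia6, which acts beside Pdia4, and P4hb, the classical isomerase, had F test adjusted p-values of 0.695 and 0.729.

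In ER-associated degradation the direction differed from that of the chaperones, with 1 of 6 genes above 0 in cMyc+prePB against the others and a median of -0.11, which was -0.18 without replicate 2 and -0.07 without replicate 1 of cMyc+prePB. Edem3, a mannosidase that marks glycoproteins for disposal (chromosome 1, 151755371 to 151822051), had its highest mean in cMyc+lateCD23lo. Normalized counts of Edem3 in replicates 1 to 4 were 216, 385, 231 and 356 in cMyc+prePB, against 236, 460.1, 345 and 348 in cMyc+early, 302, 250.4, 549 and 299 in cMyc+lateCD23int and 880.4, 449, 711 and 767 in cMyc+lateCD23lo. One value of cMyc+lateCD23lo, that of replicate 2, lay inside the range of the other subpopulations and the other 3 lay above it. The log2 fold change of cMyc+lateCD23int against cMyc+lateCD23lo was -1.03 (SE 0.33, limma adjusted p = 0.699), and that of cMyc+early against cMyc+lateCD23lo -1.01 (SE 0.33, adjusted p = 0.293). Edem2, of the same family, had its lowest mean in cMyc+lateCD23lo. Edem2 stood at 627, 1527, 951 and 1005 normalized counts in replicates 1 to 4 of cMyc+prePB, at 404, 1117, 814 and 981 in cMyc+early, at 494, 741, 1078 and 1215 in cMyc+lateCD23int and at 439, 675, 448 and 776 in cMyc+lateCD23lo. Its libraries overlapped in all pairs of subpopulations. Herpud1, a membrane protein of the retrotranslocation complex and by far the most abundant of the group, had close means. In replicates 1 to 4, Herpud1 had 14259, 15782, 15897 and 12359 normalized counts in cMyc+prePB, against 14336, 15452, 16291 and 15938 in cMyc+early, 16583, 15689, 17995 and 14274 in cMyc+lateCD23int and 15591, 14103, 14642 and 12402 in cMyc+lateCD23lo. The means of the 4 subpopulations lay between 14185 and 16135, and the F test gave an adjusted p of 0.795. Sel1l and Syvn1, the core of the ubiquitin ligase complex, and Edem1 had adjusted p-values of 0.871, 0.928 and 0.951.

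The signal recognition particle, which brings ribosomes with a nascent signal peptide to the ER, showed no common direction, with 2 of 5 genes above 0 in cMyc+prePB against the others and a median of -0.05, which was -0.16 without replicate 1 of cMyc+prePB and 0.00 without replicate 4. Srp68 had the smallest F test p of the group. Normalized counts of Srp68 in replicates 1 to 4 were 491, 1750, 1522 and 1661 in cMyc+prePB, against 469.5, 1257, 893 and 1943 in cMyc+early, 426, 570, 1495 and 792 in cMyc+lateCD23int and 485, 550.2, 294 and 869 in cMyc+lateCD23lo. Replicate 1 of cMyc+prePB and of cMyc+early stood below the other libraries of these subpopulations, and the F test adjusted p was 0.560. Srp72 stood at 7170, 6120, 4651 and 4632 normalized counts in replicates 1 to 4 of cMyc+prePB, at 7484, 4809, 6949 and 5028 in cMyc+early, at 7322, 5852, 3964 and 4685 in cMyc+lateCD23int and at 6902, 5991, 6854 and 6504 in cMyc+lateCD23lo. This subunit, the partner of Srp68 in the particle, was highest in replicate 1 within each subpopulation, and the lowest of all libraries was cMyc+lateCD23int replicate 3. Normalized counts of Srp9 in replicates 1 to 4 were 4371, 3463, 3643 and 3966 in cMyc+prePB, against 4453, 3310, 4277 and 3217 in cMyc+early, 5840, 4041, 3271 and 4342 in cMyc+lateCD23int and 4657, 4547, 4432 and 4828 in cMyc+lateCD23lo. The cMyc+prePB libraries of Srp9 were all below those of cMyc+lateCD23lo. Srp9, Srp14 and Srp19 had F test adjusted p-values of 0.735, 0.881 and 0.739.

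Among the translocon genes, Sec61g, the small gamma subunit of the channel (chromosome 11, 16500530 to 16508484), had the smallest F test p. Sec61g stood at 559, 486, 488 and 555 normalized counts in replicates 1 to 4 of cMyc+prePB, at 276, 252, 460 and 200.4 in cMyc+early, at 558, 405, 284 and 387 in cMyc+lateCD23int and at 403, 423, 417 and 474 in cMyc+lateCD23lo. The lowest cMyc+prePB library was above the highest of cMyc+early, which was replicate 3, and the log2 fold change was 0.88 (SE 0.29, limma adjusted p = 0.357). Sec61g, Creld2 and Dnajc3 were the 3 members with no overlap between cMyc+prePB and cMyc+early (5.88%, against 4.23% of all genes tested). Sec61a1, which encodes the pore itself, varied more between libraries than any other gene of the group. Normalized counts of Sec61a1 in replicates 1 to 4 were 1226, 1595, 1471 and 2668 in cMyc+prePB, against 713, 2164, 394 and 2263 in cMyc+early, 752, 812, 2824 and 1433 in cMyc+lateCD23int and 1130, 986, 547 and 801 in cMyc+lateCD23lo. All cMyc+prePB libraries were above all cMyc+lateCD23lo libraries, while the other pairs of subpopulations overlapped, with a wide spread within cMyc+early and cMyc+lateCD23int (F test adjusted p = 0.717 by limma). Sec61b stood at 3672, 3443, 3302 and 2971 normalized counts in replicates 1 to 4 of cMyc+prePB, at 2686, 2608, 3538 and 2058 in cMyc+early, at 3432, 3066, 2157 and 3152 in cMyc+lateCD23int and at 3027, 3177, 2950 and 3104 in cMyc+lateCD23lo. The beta subunit was steadier than the pore subunit in these libraries, with a highest value below 2 times the lowest. Sec62 and Sec63, which assist translocation after translation, had adjusted p-values of 0.790 and 0.718.

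In the translocon-associated protein complex, which helps some nascent chains to enter, Ssr2 had the smallest F test p. Normalized counts of Ssr2 in replicates 1 to 4 were 2261, 2878, 3082 and 3399 in cMyc+prePB, against 1849, 2135, 1817 and 2713 in cMyc+early, 2224, 2278, 1970 and 2513 in cMyc+lateCD23int and 2379, 2607, 2241 and 2425 in cMyc+lateCD23lo. The cMyc+prePB mean was the highest, with replicate 1 inside the range of the other subpopulations, and the log2 fold change against them was 0.36 (SE 0.14, limma adjusted p = 0.334). Ssr1 had its highest mean in cMyc+lateCD23lo. Ssr1 stood at 28596, 21030, 19965 and 18591 normalized counts in replicates 1 to 4 of cMyc+prePB, at 26200, 16894, 32469 and 22999 in cMyc+early, at 25375, 24660, 15346 and 19773 in cMyc+lateCD23int and at 28807, 24012, 32557 and 34827 in cMyc+lateCD23lo. Its mean there was 30051 ± 4730 against 21288 ± 4679 in cMyc+lateCD23int (SD, n = 4; limma adjusted p = 0.754 for this pair), with overlap. Normalized counts of Ssr4 in replicates 1 to 4 were 2005, 1500, 1736 and 1849 in cMyc+prePB, against 1987, 1408, 1631 and 1092 in cMyc+early, 2629, 1748, 1322 and 1905 in cMyc+lateCD23int and 2166, 1457, 1668 and 1614 in cMyc+lateCD23lo. The delta subunit Ssr4 was highest in cMyc+lateCD23int replicate 1 and lowest in cMyc+early replicate 4. Ssr3 had an F test adjusted p of 0.680.

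The signal peptidase genes were all lower in cMyc+lateCD23int than in cMyc+lateCD23lo by their means, with 0 of 5 above 0 and a median of -0.32, whereas 51.2% of all genes tested were above 0 in this comparison. Replicate 3 of cMyc+lateCD23int had the lowest signal peptidase score of all libraries (-0.480), and without it the median was -0.13, with Spcs1 above 0. Only Spcs2, an accessory subunit, had an unadjusted p under 0.05 there. Spcs2 stood at 19747, 13813, 14827 and 13494 normalized counts in replicates 1 to 4 of cMyc+prePB, at 16085, 12196, 15259 and 10147 in cMyc+early, at 15470, 16349, 10959 and 12996 in cMyc+lateCD23int and at 15178, 17512, 19473 and 20095 in cMyc+lateCD23lo. Replicate 1 of cMyc+lateCD23lo was lower than 2 of the cMyc+lateCD23int libraries, and the log2 fold change was -0.38 (SE 0.17, limma adjusted p = 0.762). Sec11c encodes a catalytic subunit. Normalized counts of Sec11c in replicates 1 to 4 were 7457, 5880, 5178 and 6005 in cMyc+prePB, against 6322, 4061, 5470 and 3761 in cMyc+early, 6445, 5277, 3352 and 5244 in cMyc+lateCD23int and 5769, 6103, 5969 and 6825 in cMyc+lateCD23lo. Its cMyc+lateCD23lo libraries lay within the range of cMyc+lateCD23int except for replicate 4, and its F test adjusted p was 0.646. Spcs1, Spcs3 and Sec11a, the other catalytic subunit, had adjusted p-values of 0.732, 0.732 and 0.788.

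Of the oligosaccharyltransferase genes, which transfer N-linked glycans to nascent chains, 5 of 7 were above 0 in cMyc+prePB against the others, with a median of 0.26. Rpn2 stood at 2720, 5320, 3954 and 4806 normalized counts in replicates 1 to 4 of cMyc+prePB, at 2677, 4917, 3382 and 3910 in cMyc+early, at 2433, 3362, 4216 and 3334 in cMyc+lateCD23int and at 1995, 3019, 1976 and 3268 in cMyc+lateCD23lo. The Rpn2 libraries of cMyc+prePB overlapped with those of each other subpopulation, with cMyc+lateCD23lo through replicate 1 alone, and the F test adjusted p was 0.506. Stt3a and Stt3b are the catalytic subunits of 2 forms of the enzyme, one bound to the translocon and one that acts after translocation, and they lay on opposite sides. Normalized counts of Stt3a in replicates 1 to 4 were 7292, 9940, 9494 and 7625 in cMyc+prePB, against 6596, 7997, 8723 and 8409 in cMyc+early, 5980, 6997, 7460 and 5745 in cMyc+lateCD23int and 6038, 6411, 8321 and 7663 in cMyc+lateCD23lo. Stt3b stood at 4247, 4226, 3463 and 3917 normalized counts in replicates 1 to 4 of cMyc+prePB, at 5968, 4550, 4163 and 4990 in cMyc+early, at 5155, 5091, 5428 and 5187 in cMyc+lateCD23int and at 5744, 4227, 3373 and 3452 in cMyc+lateCD23lo. Stt3a had its 2 highest libraries in cMyc+prePB (log2 fold change 0.26, limma adjusted p = 0.455), while the cMyc+prePB mean of Stt3b was the lowest of the 4 (log2 fold change -0.25, adjusted p = 0.506). Rpn1, Ddost, Dad1 and Ostc had F test adjusted p-values of 0.748, 0.682, 0.837 and 0.788.

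None of the 4 stress regulators was called. Normalized counts of Ern1 in replicates 1 to 4 were 0, 73.6, 52.3 and 5.41 in cMyc+prePB, against 0, 14.2, 3.85 and 32.5 in cMyc+early, 0, 0, 0 and 37.2 in cMyc+lateCD23int and 69, 29, 0 and 0 in cMyc+lateCD23lo. Ern1 was at 0 in 7 libraries and did not exceed 73.6 in any, and zeros were present in each subpopulation. Atf6 stood at 329.9, 709, 345 and 699.7 normalized counts in replicates 1 to 4 of cMyc+prePB, at 356, 446, 159 and 628 in cMyc+early, at 314, 660.5, 516 and 340.2 in cMyc+lateCD23int and at 202, 525, 361 and 422 in cMyc+lateCD23lo. Atf6, a sensor that is cut in the Golgi to release a transcription factor, had its lowest library in cMyc+early replicate 3 and its highest in cMyc+prePB replicate 2. Normalized counts of Atf4 in replicates 1 to 4 were 1523, 1380, 1157 and 1199 in cMyc+prePB, against 1474, 1435, 1117 and 885 in cMyc+early, 1239, 1309, 1705 and 1299 in cMyc+lateCD23int and 1420, 1011, 1019 and 1285 in cMyc+lateCD23lo. Atf4, whose protein is controlled mainly by translation, stayed between 885 and 1705. Ddit3 stood at 280.5, 159.6, 221 and 169.5 normalized counts in replicates 1 to 4 of cMyc+prePB, at 429.7, 272, 250.2 and 111 in cMyc+early, at 412, 151, 237 and 349 in cMyc+lateCD23int and at 791, 225, 189 and 186 in cMyc+lateCD23lo. Ddit3, which encodes the stress factor CHOP, was highest in cMyc+lateCD23lo replicate 1 and otherwise did not exceed 429.7. The F test adjusted p-values by limma were 0.878, 0.890, 0.887 and 0.937, and the 95% confidence interval of cMyc+prePB against the others ran from -1.23 to 0.49 for Ddit3 on the log2 scale.

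The 5 comparisons between subpopulations were also counted across the 51 genes. In cMyc+prePB against the 3 others together, 0 members were called (0.312% of all genes tested) and 5 had an unadjusted p under 0.05 (9.8%, against 11.1%). These were Creld2, Hspa5, Ssr2, Dnajc3 and Sec61g, all higher in cMyc+prePB. In cMyc+prePB against cMyc+early, 0 were called (0.192%), 4 had an unadjusted p under 0.05 (7.84%, against 8.58%) and 35 had a fold change above 0 (68.6%, against 51.2%). The 4 were Creld2, Dnajc3, Sec61g and Ssr2, all higher in cMyc+prePB. Between cMyc+early and cMyc+lateCD23int the counts were 0 (0.008%), 1 (1.96%, against 3.71%) and 26 above 0 (51%, against 47%), the 1 gene being Pdia4. Between cMyc+lateCD23int and cMyc+lateCD23lo they were 0 (0.008%), 4 (7.84%, against 6.28%) and 19 above 0 (37.3%, against 51.2%), the 4 being Edem3, Creld2, Ssr1 and Spcs2. Between cMyc+early and cMyc+lateCD23lo they were 0 (0.28%), 6 (11.8%, against 10.3%) and 24 above 0 (47.1%, against 49.6%). These 6 were Pdia4, Hspa5 and Rpn2, higher in cMyc+early, and Edem3, Dnajc3 and Spcs2, lower there. The comparisons share libraries, so that their counts are not independent. No member had all 4 cMyc+prePB libraries above the 12 others (0.328% of all genes tested had) or below them (0.264%). Between cMyc+prePB and cMyc+lateCD23lo the libraries of 5 members did not overlap (9.8%, against 6.56% of all genes tested). These were Hspa5, Sec61a1 and Sec61g, higher in cMyc+prePB, and Edem3 and Srp9, lower there. DESeq2 called Creld2 in cMyc+prePB against the others (1.81% of all genes were called) and Pdia4 in cMyc+early against cMyc+lateCD23lo (1.37%), and 0 members in the other comparisons. The quasi-likelihood test of edgeR called 0 members in each of them. In the order given here, 8, 4, 1, 4 and 7 of the 51 had an unadjusted p under 0.05. Over all genes these shares were 10.6%, 7.76%, 3.54%, 6.21% and 9.93%.

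By the means on the log2 scale, 26 members (51%) were highest in cMyc+prePB, against 27.9% of all genes tested, 15 (29.4%, against 28%) in cMyc+lateCD23lo and 5 (9.8%) in each of cMyc+early (21.8% of all genes) and cMyc+lateCD23int (22.3%). Set against the 3 other subpopulations, cMyc+prePB had a median log2 fold change of 0.17 over the members and 0.00 over all genes tested. Rescaling the libraries to the same total gave 0.22 and 0.05, and quantile normalization 0.18 and 0.01. The mean log2 score of the 51 genes was 0.124 ± 0.140 in cMyc+prePB, against -0.0320 ± 0.0675 in cMyc+early, -0.0776 ± 0.0633 in cMyc+lateCD23int and -0.0143 ± 0.0978 in cMyc+lateCD23lo (SD, n = 4). Within cMyc+prePB it was -0.0387, 0.299, 0.0890 and 0.146 in replicates 1 to 4, so that replicate 1 lay inside the range of the other subpopulations and replicate 2 above every other library. The difference of 0.165 between cMyc+prePB and the others was 0.219 without replicate 1 and 0.107 without replicate 2 of cMyc+prePB. The share of reads taken by the 51 genes had means of 1.72% ± 0.126 in cMyc+prePB, against 1.61% ± 0.103 in cMyc+early, 1.46% ± 0.0436 in cMyc+lateCD23int and 1.54% ± 0.155 in cMyc+lateCD23lo (SD, n = 4).

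**Figure D4:**
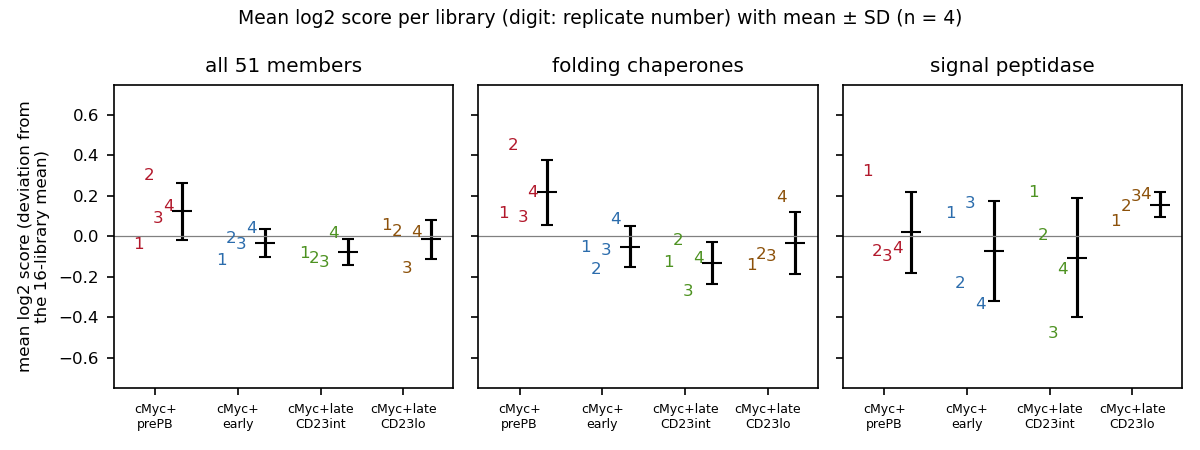
Mean log2 score per library for all 51 ER genes, the 11 folding chaperones and the 5 signal peptidase genes, with replicate numbers as symbols and the mean and SD of 4 libraries in black. In cMyc+prePB, replicate 1 is the lowest library of the 51-gene score (-0.0387) and the highest of the signal peptidase score (0.319).

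Members with an ERSE or ERSE-II in the promoter window had a median of 0.18 on the log2 scale for cMyc+prePB against the others, with 7 of 10 above 0, and the 31 members with a window and neither element had a median of 0.08, with 19 above 0. For cMyc+prePB against cMyc+early the medians were 0.0974 with an element and 0.110 with neither, in the other order. They were 0.08 and 0.00 for cMyc+early against cMyc+lateCD23int, -0.02 and -0.11 for cMyc+lateCD23int against cMyc+lateCD23lo, and 0.08 and -0.14 for cMyc+early against cMyc+lateCD23lo. Creld2, Hspa5 and Dnajc3, whose windows are printed above, carry the element, and so does Canx, the chaperone on the other side of 0. These values describe the 2 sets of genes and were not tested.

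Other genes of the secretory pathway were read from a list of 68. Of these, 67 were found once, 62 were tested and 0 were called by limma in the F test or in any of the 5 comparisons. The F test called 0.408% of all genes tested. At an unadjusted F test p under 0.05 there were 8 of the 62, against 10.2% of all genes tested. In cMyc+prePB against the others 40 of the 62 were above 0, against 50.3% of all genes tested, with a median of 0.10. Xbp1, the transcription factor of the pathway, had a mean of 4820 ± 877 normalized counts in cMyc+prePB, against 3599 ± 344 in cMyc+early, 3708 ± 208 in cMyc+lateCD23int and 4251 ± 675 in cMyc+lateCD23lo (SD, n = 4; F test adjusted p = 0.519). Derl3, a retrotranslocation protein typical of secretory cells, stood at 924 ± 278, 569 ± 194, 476 ± 117 and 504 ± 82.8 in the same order (F test adjusted p = 0.439 by limma), and differed by 0.83 on the log2 scale between cMyc+prePB and the others (adjusted p = 0.212). Mzb1, a B cell chaperone cofactor, stood at 11211 ± 763, 9239 ± 676, 10502 ± 1934 and 12749 ± 1715 (adjusted p = 0.441). Eif2ak3, which encodes the sensor PERK, stood at 310 ± 133, 211 ± 137, 359 ± 110 and 377 ± 123 (adjusted p = 0.655).

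Marker genes were read beside these values. The summed normalized counts of 10 plasma cell genes, of which Xbp1 and Mzb1 are also in the list above, ranged from 54372 to 130385 in cMyc+prePB, from 38275 to 47745 in cMyc+early, from 45922 to 78792 in cMyc+lateCD23int and from 75423 to 111911 in cMyc+lateCD23lo. Each of the 10 exceeded 3 reads in some library. Tnfrsf17 was above 0 only in cMyc+prePB replicate 4 (24.3), and Cd28 only in cMyc+prePB replicate 1 and cMyc+lateCD23lo replicates 3 and 4. Jchain, the joining chain of secreted antibody, was the most abundant of the 10, with 104886 in replicate 1 of cMyc+prePB and 31885 to 43640 in replicates 2 to 4. It ranged from 18862 to 25960 in cMyc+early, from 26598 to 55167 in cMyc+lateCD23int and from 51542 to 84470 in cMyc+lateCD23lo. Sdc1 (CD138) was at or under 3 reads in 13 of the 16 libraries and was highest, at 108, in cMyc+prePB replicate 2. Prdm1 reached 133 at most, in cMyc+lateCD23lo replicate 2. Replicate 2 of cMyc+prePB had the highest score of the 51 genes, and the lowest Jchain and the lowest plasma cell sum of the cMyc+prePB libraries. Among these libraries it had the highest Prdm1 (119, the others 6.31 to 9.02) and Ell2 (1718, the others 1246 to 1477). Xbp1, Irf4, Mzb1 and Slamf7 were neither highest nor lowest there, and Tnfrsf17 and Cd28 were at 0. B cell genes were abundant in every library (summed counts of 10 genes from 97316 to 257902). Summed T cell markers did not exceed 498 and myeloid markers 1435, the follicular dendritic and stromal list did not exceed 117, with Pdgfrb at or under 3 reads in every library, and erythroid markers did not exceed 2225. The part of antibody-secreting cells in the values of the ER genes was not tested.

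The members also varied together within the subpopulations, and in 2 opposite directions. After subtraction of the subpopulation means, the correlation between 2 members over the 16 libraries had a median of -0.00888, and of -0.002 over all pairs of tested genes, but it was above 0.5 in 22% of the 1275 pairs of members, against 7.74% of all pairs. These correlations share libraries and are given as a description. It was above 0.5 in all 6 pairs of disulfide isomerases and had a median of 0.728 among the signal peptidase genes and 0.625 among those of the signal recognition particle. The highest were Canx with Ssr1 (0.957), Srp19 with Sec11c (0.947) and Pdia4 with Pdia6 (0.946). Among the oligosaccharyltransferase genes the median was -0.285.

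The axis along which the libraries of a subpopulation differed most was taken from the 12454 tested genes that are not members, as the first principal component of their deviations, which held 24.2% of the variance. It held 43.4% of the variance of the members. The axis computed from the members alone correlated with it at 0.979 over the 16 libraries. Of the members, 20 (39.2%) had a correlation below -0.5 with this axis and 17 (33.3%) above 0.5, against 19.2% and 19.4% of the other genes. Replicate 1 of cMyc+prePB, of cMyc+lateCD23int and of cMyc+early lay at the low end, and replicate 3 of cMyc+lateCD23int and replicate 4 of cMyc+early at the high end. Replicate 1 of cMyc+lateCD23lo was at -1.77, next above replicate 3 of cMyc+early at -2.18, on an axis from -4.36 to 3.74. The 3 libraries at the low end had 21430755 to 25233703 reads and 14831 to 15003 genes with a read, inside the range of the others for both. Replicate 3 of cMyc+lateCD23int, at the other extreme, had the fewest reads (19812080) and the most genes with a read (15573) of the 16 libraries.

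Within complexes the subunits fell on both sides of this axis. Srp72 was at -0.94 and its partner Srp68 at 0.88. Sec61b and Sec61g were at -0.69 and -0.66 and the pore subunit Sec61a1 at 0.78. Dad1 and Ostc were at -0.81 and -0.80, whereas Rpn1, Ddost and Rpn2 were at 0.91, 0.90 and 0.84. Of the signal peptidase genes 4 of 5 were below -0.5, led by Sec11a at -0.97, and of the isomerases 3 of 4 above 0.5. The chaperones that came first in the comparison of the subpopulations were near the middle, with Creld2 at 0.18, Hspa5 at 0.24 and Dnajc3 at 0.29, while Pdia4 was at 0.71, Edem3 at 0.505 and Sec61g at -0.66. The median transcript length in GENCODE M21 was 974 bases for the 20 members below -0.5 and 2428 for the 17 above 0.5, and their median GC content 47.5% and 53.3%. For the other genes the lengths were 1489 and 2155 bases and the GC content 46.8% and 54.1%, over the 83.9% for which a transcript was found. The part of transcript length, GC content or library preparation in this pattern was not tested.

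**Figure D5:**
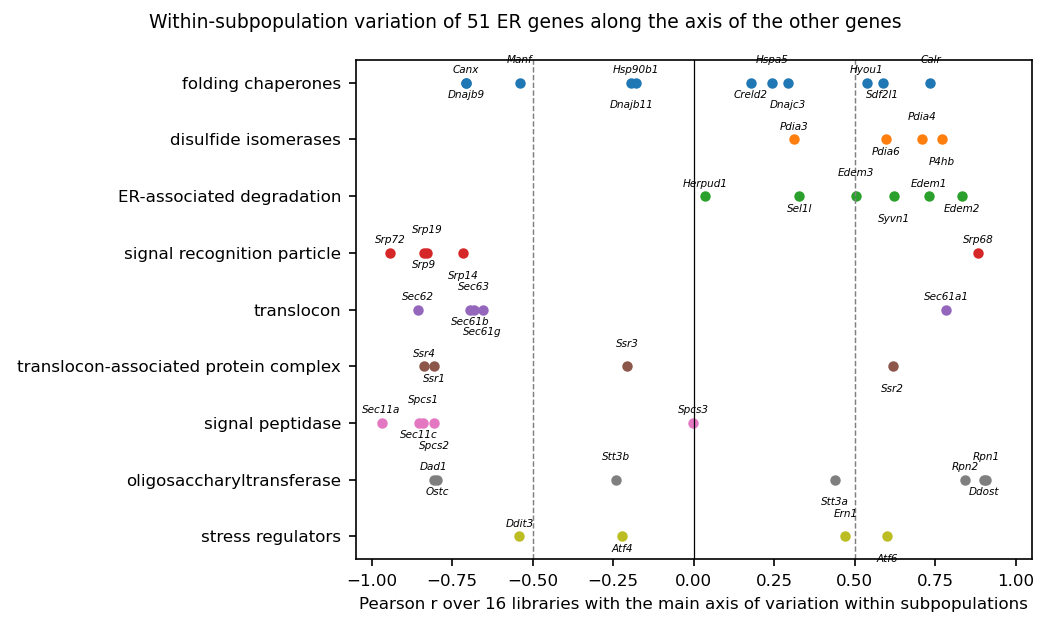
Pearson correlation of each of the 51 ER genes with the main axis of variation within subpopulations, taken from the other tested genes, over 16 libraries and by role. Subunits of one complex lie at both ends, as Srp72 at -0.94 and Srp68 at 0.88, with dashed lines at -0.5 and 0.5.

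Without the 4 libraries numbered 1, a setting chosen after the data were seen, limma again called 0 members in the F test and in the 5 comparisons. Of all genes it called 0.552% in the F test and 0% to 0.432% in the comparisons. Of the 51 members, 14 then had an unadjusted p under 0.05 in the F test and 10 in cMyc+prePB against the others. These shares were above those of the 12505 genes tested, 13.5% and 13.4%. In cMyc+prePB against cMyc+early the count was 4 (8.86% of all genes), and in cMyc+early against cMyc+lateCD23int 2 (3.85%). It was 12 in cMyc+lateCD23int against cMyc+lateCD23lo (10.2%) and 11 in cMyc+early against cMyc+lateCD23lo (13.3%). The difference in the score of the 51 genes between cMyc+prePB and the others was 0.216 in these 12 libraries. With replicate 1 of cMyc+prePB alone left out, 0 members were called. Of all genes, 0.544% were called in the F test and 0.632% in cMyc+prePB against the others. In that order, 11 and 14 of the 51 had an unadjusted p under 0.05, shares above the 13.2% and 15.3% of all genes. In the other comparisons, in the order given above, the counts were 5, 1, 4 and 7, against 10.1%, 4.08%, 7.04% and 11.4% of all genes.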

How the data were processed

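RNA sequencing of 16 libraries was used, 4 from each cMyc+ GC B cell subpopulation. The deposited table gives a normalized signal per gene and library, which the authors made by dividing the counts of each library by its size factor. The submitters' processing notes name Trimmomatic 0.36, STAR 2.5.2a, RSEM 1.2.31, DESeq2 1.20.0, R 3.5.1 and GRCm38, without their roles, and the annotation release, filters and use of strand are not given in the sources used here, so that reads of overlapping genes may be shared. Every value was a whole multiple of the smallest value of its library (tolerance 1e-06), which gave back the reads, 19812080 to 25795815 per library. Correlations between libraries on the log2 scale ranged from 0.825 to 0.916, and no library was present more than once.

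Genes with a mean of at least 10 normalized counts were tested with limma 3.58.1 (R 4.3.3) on log2(normalized count + 1), with a trend in the variance, by an F test over the 4 subpopulations and 5 comparisons between them, with Benjamini-Hochberg adjustment over all 12505 genes. Fold changes are on this scale, which understates changes of low genes. Alternatives were other pseudocounts (0.5 and 5), filters (none and a mean of at least 50) and scalings, no trend, the replicate number as a block, edgeR 4.0.16 and DESeq2 1.42.0 on the recovered reads, and each library left out in turn. The edgeR fit with the block, the fit without the 4 libraries numbered 1 and the counts per role group with each library left out were chosen after seeing the data. The code was tested on simulated data.

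The members, role groups and lists were chosen with earlier results of these data known. Values per library are given in each role group for the 2 members with the smallest F test p, the most abundant member and 11 well known members. Dnajc3 was chosen after its values were seen, as were the genes named by their place along the axis of variation, by the overlap of their libraries or by an unadjusted p. Coordinates and exon lengths come from GENCODE M21 (GRCm38) and promoter windows from RefSeq. Srp54a in the list of other pathway genes and Itgam in the myeloid list stood on more than 1 row and were not used.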

Additional observations from a re-analysis of the deposited data

Results flagged for a closer look

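In each subpopulation the library farthest from the 3 others was looked at for every member and for the scores. By Dixon's criterion, for which chance gives about 1 in 20 groups, 15 of 244 groups (6.15%) held a library that stood apart, and 6 of the 15 were replicate 1 of cMyc+prePB. In that library the values were low for Sdf2l1 (2350 normalized counts, the others 3374 to 3534), Srp68 (491.2, the others 1522 to 1750) and Ddost (2741, the others 4992 to 5564). They were high there for Sec63 (579.3, the others 443 to 463), Sec11a (4714, the others 3228 to 3398) and the signal peptidase score (0.3187, the others -0.102 to -0.0615).

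Replicate 1 of cMyc+lateCD23lo stood high for Sec11a (5169 normalized counts, the others 3985 to 4055) and Ddit3 (791, the others 186 to 225), and replicate 1 of cMyc+lateCD23int for Ssr3 (2710, the others 2277 to 2339). Ostc was low in cMyc+prePB replicate 3 (4688, the others 5422 to 5516). Ern1 was at 37.18 in cMyc+lateCD23int replicate 4 and at 0 in the others, and the score of the stress regulators was 0.7281 in that library (the others -0.645 to -0.477). The score of the 51 genes was -0.1592 in cMyc+lateCD23lo replicate 3 (the others 0.0209 to 0.0548). The score of the folding chaperones was 0.1925 in cMyc+lateCD23lo replicate 4 (the others -0.143 to -0.0900), and that of the translocon-associated protein complex was -0.4748 in cMyc+early replicate 2 (the others -0.0535 to 0.0261).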

How the results depend on the processing

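Over 1945 pairs of a result and an alternative, 21 changed their side of the threshold or moved by over 1.5 times as a count, and 1924 did not. Of the 68 results, 51 were F test adjusted p-values of single members, and 3 of these fell below 0.05 in any alternative. Most lay far above this threshold in the main fit, so the count of unchanged pairs says little about stability. Values without a test counted as unchanged while they moved by less than 1 SD between libraries, also where the sign changed. With the replicate block, limma called 2 members in the F test (Creld2, adjusted p = 0.0451, and Pdia4, 0.0158), 1 in cMyc+prePB against the others (Creld2, 0.0359) and 1 in cMyc+early against cMyc+lateCD23lo (Pdia4, 0.0128). In that order, 1.38%, 1.69% and 0.72% of all genes were called. The labels do not say whether the replicate numbers pair the libraries. Same-numbered libraries correlated in their deviations at -0.129 to 0.174 over 24 pairs (mean 0.0509), with 5 above 0.1. Of the 16 libraries, 11 correlated best with their own number. An effect shared by libraries of the same number was not tested. DESeq2 called 3 members in its likelihood ratio test (Creld2, adjusted p = 0.00685, Pdia4, 0.0218, and Edem3, 0.031) and 1 in each of the same comparisons (Creld2, 0.0175, and Pdia4, 0.0185). Of all genes it called 2.12%, 1.81% and 1.37%. The edgeR fit with the block called 1 in the F test (Pdia4, 0.0192) and 1 in each of these comparisons (Creld2, 0.0336, and Pdia4, 0.0155). Of all genes that fit called 1.03%, 1.36% and 0.504%. The cause of these differences between fits was not tested. Over the alternatives the F test adjusted p ranged from 0.00685 to 0.339 for Creld2, from 0.0158 to 0.434 for Pdia4 and from 0.031 to 0.499 for Edem3. With 1 library left out, 0 members were called in any of the 16 settings. Of all genes, these settings called 0.248% to 0.544% in the F test and 0% to 0.632% in the comparisons.

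Over all 12505 genes, the F test called 51, against 264 by the likelihood ratio test of DESeq2 (of 12451). The F test called 173 with the block, 129 by edgeR with the block, 29 by edgeR without it, 31 without the filter (of 23621) and 25 without the trend. For cMyc+prePB against the others the count was 39, against 225 by DESeq2, 211 with the block, 170 by edgeR with the block and 79 without replicate 1 of cMyc+prePB. The difference in the score of the 51 genes between cMyc+early and cMyc+lateCD23lo, -0.0177, was above 0 in 5 of 23 alternatives, with a range of -0.0660 to 0.0344. Genes near the 3-read level, such as Ern1, are limited by depth.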
